A study of Oryza sativa Japonica Group with 9 samples.

Results

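The genes described here encode the enzymes that turn ammonium into amino acids in plants, glutamine synthetase and glutamate synthase. They were taken by locus identifier, with earlier results of these data known. They comprise 4 glutamine synthetase genes and 2 glutamate synthase genes, 6 of the 34285 genes listed in both deposited tables. Os02g0735200, Os03g0223400 and Os03g0712800 encode the cytosolic glutamine synthetases GLN1-1, GLN1-2 and GLN1-3 (RefSeq names, also written GS1;1, GS1;2 and GS1;3). Os04g0659100 encodes the plastid glutamine synthetase GS2. Os05g0555600 encodes NADH-dependent glutamate synthase 2 (NADH-GOGAT2) and Os07g0658400 the ferredoxin-dependent glutamate synthase (Fd-GOGAT).

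The samples were roots of rice (Oryza sativa Japonica, cultivar Nipponbare) grown under control nutrition, nitrogen (N) deficiency or phosphorus (P) deficiency. Each group held 3 libraries that the study calls biological replicates, and RNA was sequenced from each with TruSeq libraries. Plant age, length of treatment and nutrient concentrations were not given in the sources used here. All groups were the same cultivar with no stated transgene or mutation.

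Glutamine synthetase joins ammonium to glutamate to make glutamine, using ATP. Glutamate synthase then moves the amide nitrogen of glutamine onto 2-oxoglutarate, so that the pair works as a cycle that yields net glutamate. In roots the cytosolic synthetases assimilate ammonium that is taken up from soil or made from nitrate, and NADH-dependent glutamate synthase acts beside them in plastids. GS2 and Fd-GOGAT are best known from leaf chloroplasts, where they recapture the ammonium released by photorespiration, and both are also present in root plastids.

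In the coordinates of the deposited tables, whose genome build could not be settled because the submitters' processing notes name a human one, GLN1-1 lay on chromosome 2 from 30674780 to 30678659 on the minus strand. GLN1-2 lay on chromosome 3 from 6457915 to 6462146 and GLN1-3 on the same chromosome from 28822424 to 28826321, both on the minus strand. GS2 spanned 33624428 to 33631025 on chromosome 4, minus strand. Each of these 4 models carried the catalytic and the beta-grasp domain of glutamine synthetase. Fd-GOGAT spanned 27723089 to 27738212 on chromosome 7, minus strand, with the class-II glutamine amidotransferase, central and conserved glutamate synthase domains. NADH-GOGAT2 spanned 27631211 to 27636450 on chromosome 5, plus strand. Its model held only the iron-sulfur and pyridine nucleotide oxidoreductase domains and none of the glutamate synthase domains of Fd-GOGAT, so its counts are those of that stretch. No other gene model overlapped any of the 6. Because the cytosolic synthetase genes are similar in sequence and the authors' handling of reads that map to more than 1 place was not given in the sources used here, reads may be shared among them.

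Library depth ranged from 17931023 to 22752492 reads in genes. P-deficient library 3 stood apart from the other 8 libraries, at -81.28 on the third principal component against -18.44 to 34.42. Several of the results that it moves are given with and without it, but the levels per kilobase and the correlations are given only with it. Of 5 root marker genes 0 passed the limma test in any comparison, with 1, 0 and 0 at an unadjusted p under 0.05 for N deficiency, P deficiency and the direct comparison, and 0 by DESeq2 in each. Over all genes 12.8%, 6.28% and 3.78% passed by limma in the same order, so 0 of 5 is close to these shares and says little about root composition. Without P-deficient library 3, 1 root marker passed under phosphorus deficiency, a fit in which more genes passed over all genes too. The summed level of the root markers was 121125.1 to 153075.8 normalised reads in the other 8 libraries and 84101.8 in P-deficient library 3. Levels are normalised reads, that is, reads divided by a size factor that puts the 9 libraries on one scale. Fold changes against control come from each deposited table's own scale, as log2 of the value plus 1. In whole-root RNA, fewer cells of a type and less RNA per cell cannot be told apart.

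Nitrogen deficiency raised 3 of the 6 genes and lowered none. GLN1-1 rose 3.02-fold, NADH-GOGAT2 3.84-fold and Fd-GOGAT 1.65-fold, while GLN1-2, GLN1-3 and GS2 did not pass the test. The background was 12.8% of 32680 genes past an adjusted p of 0.05 with 6.90% higher and 5.94% lower. Phosphorus deficiency changed 1 of the 6, NADH-GOGAT2, which fell, against a background of 6.28% of 32576 genes, 3.58% higher and 2.70% lower. Both comparisons use the same 3 control libraries.

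**Figure D1:**
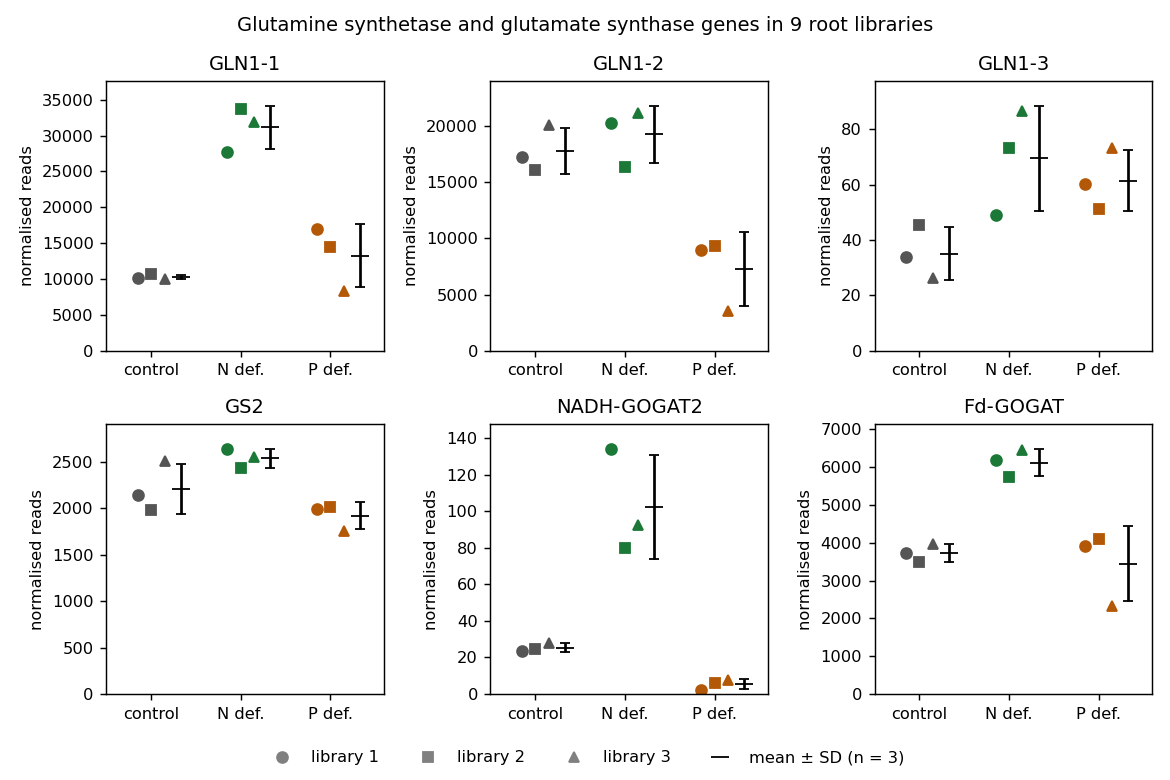
Normalised reads of each gene (y axis, each panel on its own linear scale from 0) in the 3 libraries of the control, N-deficient and P-deficient groups, with the mean and SD (n = 3) beside them. GLN1-1, NADH-GOGAT2 and Fd-GOGAT are highest in all 3 N-deficient libraries, and P-deficient library 3 is the lowest P-deficient library for GLN1-1, GLN1-2, GS2 and Fd-GOGAT.

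GLN1-1, a cytosolic synthetase, was at 10143.8, 10667.5 and 10062.5 normalised reads in the control libraries. It was at 27780.3, 33756.8 and 31869.5 in the N-deficient libraries and at 16926.4, 14492.5 and 8340.0 in the P-deficient libraries. Every N-deficient library was above every other library, whereas the P-deficient libraries lay on both sides of the controls. Under nitrogen deficiency the log2 fold change was 1.60 ± 0.13 (SE, n = 3 per group, adjusted p = 0.000259, limma with Benjamini-Hochberg correction). The call held under all 13 alternatives, with adjusted p at most 0.00345. Under phosphorus deficiency the log2 fold change was 0.30 ± 0.25 (adjusted p = 0.541, limma with Benjamini-Hochberg correction). Without P-deficient library 3 it was 0.60, with a limma adjusted p of 0.0185, so this library decides whether the gene is called higher.

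GLN1-2, the other abundant cytosolic synthetase, was at 17248.1, 16092.0 and 20062.5 normalised reads in the control libraries. The N-deficient libraries held 20279.3, 16339.4 and 21133.8 and the P-deficient libraries 8986.0, 9320.7 and 3499.5. The control and N-deficient ranges overlapped, and all 3 P-deficient libraries lay below them. The log2 fold change under nitrogen deficiency was 0.11 ± 0.16 (adjusted p = 0.714, limma with Benjamini-Hochberg correction), and it passed under none of the 13 alternatives. Under phosphorus deficiency it was -1.42 ± 0.36, which did not pass (adjusted p = 0.0638, limma with Benjamini-Hochberg correction). The spread of that estimate rests on 1 library: without P-deficient library 3 the log2 fold change was -0.96 and the adjusted p by limma was 0.00513. DESeq2 on the recovered reads also placed it past the threshold (adjusted p = 0.00178), as did 1 limma fit over all 9 libraries (adjusted p = 0.0277). The authors' deposited table gives a log2 fold change of -1.293 with an adjusted p of 0.00189.

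GLN1-3 was the least abundant synthetase gene. Control libraries held 33.72, 45.35 and 26.26 normalised reads, N-deficient libraries 49.09, 73.2 and 86.56, and P-deficient libraries 60.32, 51.04 and 73.12. Every library of either deficiency was above every control library, but the lowest of each lay close to the highest control. The log2 fold change was 0.97 ± 0.29 under nitrogen deficiency (adjusted p = 0.0687, limma with Benjamini-Hochberg correction) and 0.81 ± 0.28 under phosphorus deficiency (adjusted p = 0.143), so neither passed. The first passed with DESeq2 (adjusted p = 0.0303) and without N-deficient library 1 (limma adjusted p = 0.0481), and over all alternatives its adjusted p ran from 0.0303 to 0.226. The authors' deposited table lists it at 0.99 with an adjusted p of 0.0311 under nitrogen deficiency.

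GS2, the plastid synthetase, did not pass against control in either deficiency. It was at 2144.8, 1978.5 and 2508.2 normalised reads in the control libraries, 2636.8, 2430.3 and 2551.2 under nitrogen deficiency, and 1991.9, 2019.3 and 1751.2 under phosphorus deficiency. Both deficient groups overlapped the controls. The log2 fold change was 0.21 ± 0.11 under nitrogen deficiency (adjusted p = 0.287, limma with Benjamini-Hochberg correction) and -0.20 ± 0.12 under phosphorus deficiency (adjusted p = 0.381).

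NADH-GOGAT2 moved in opposite directions in the deficiencies, at low levels. The control libraries held 23.61, 24.57 and 28.07 normalised reads, from 21, 26 and 31 reads. The N-deficient libraries held 134.3, 80.12 and 92.27, from 145, 81 and 97 reads, and the P-deficient libraries 2.366, 6.125 and 7.597, from 2, 6 and 8 reads. No group overlapped another. Under nitrogen deficiency the log2 fold change was 1.94 ± 0.25 (adjusted p = 0.00164, limma with Benjamini-Hochberg correction), past the threshold under all 13 alternatives. Under phosphorus deficiency the level fell by 2.15 ± 0.42 on the log2 scale, 4.44-fold (adjusted p = 0.0274, limma with Benjamini-Hochberg correction). That call was lost when P-deficient library 1 (adjusted p = 0.0563) or 2 (0.0696) was left out, and likewise without control library 1 (0.0991), 2 (0.103) or 3 (0.0943), with log2 values from -2.283 to -1.748 in these limma fits. It held under the other 8 alternatives, and the authors' deposited table gives -2.213 with an adjusted p of 0.00241.

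Fd-GOGAT, which draws electrons from ferredoxin rather than NADH, was at 3728.6, 3486.6 and 3960.5 normalised reads in the control libraries. It reached 6197.9, 5727.0 and 6443.7 in the N-deficient libraries, all above the controls, and 3927.0, 4107.0 and 2314.3 in the P-deficient libraries. The first and second P-deficient libraries were close to or above the highest control, and the other lay below all controls. The log2 fold change was 0.72 ± 0.10 under nitrogen deficiency (adjusted p = 0.00263, limma with Benjamini-Hochberg correction) and past the threshold under all 13 alternatives. Under phosphorus deficiency it was -0.15 ± 0.21 (adjusted p = 0.724, limma with Benjamini-Hochberg correction) and 0.11 without P-deficient library 3 (adjusted p = 0.513).

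The roots also held transcripts typical of green tissue, and these moved in the opposite direction to Fd-GOGAT under nitrogen deficiency. Of 50 genes for chlorophyll-binding, photosystem, oxygen-evolving and Rubisco small-chain proteins, 32 fell and 0 rose under nitrogen deficiency (limma, adjusted p under 0.05). Over all genes tested, 5.94% were lower and 6.90% higher. The median log2 fold change of the 50 was -1.56 against -0.01 over all genes tested. The 32 became 20 without N-deficient library 3 and 21 without control library 2. Their summed level was 27846.1 to 74042.0 normalised reads in the control libraries, 9227.1 to 12891.3 under nitrogen deficiency and 22239.0 to 30407.2 under phosphorus deficiency. Between 1 and 5 of the 50 were at 0 in a given library, among them Os08g0119900, a PsbY gene, at 0 in 7 of the 9. The part of green-tissue transcripts in the levels of GS2 and Fd-GOGAT was not tested.

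**Figure D2:**
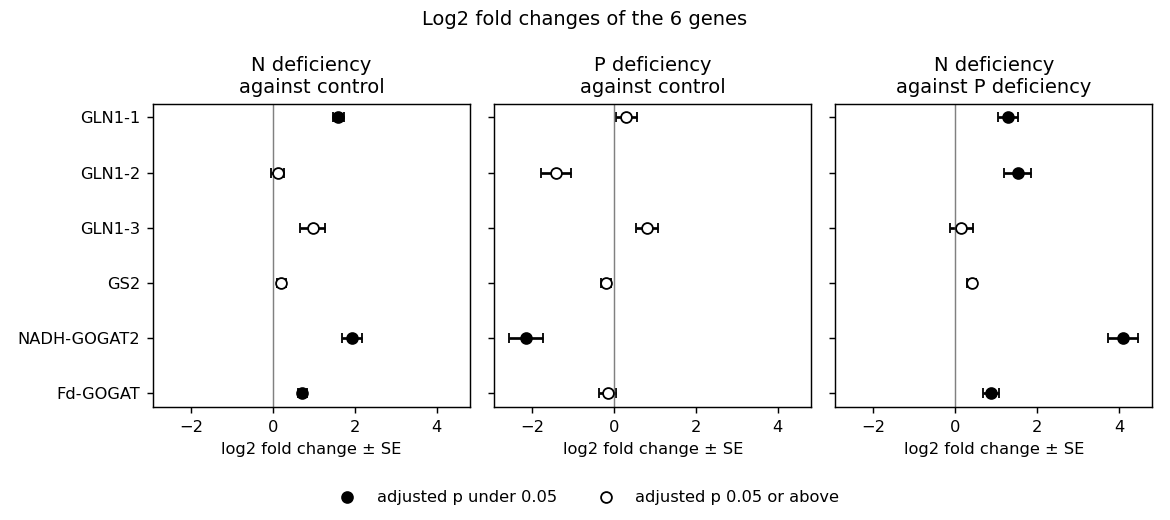
Log2 fold changes (x axis, ± SE) of the 6 genes for nitrogen deficiency against control, phosphorus deficiency against control and nitrogen against phosphorus deficiency, with filled points for a limma adjusted p under 0.05. NADH-GOGAT2 is at 1.94 and -2.15 against control and at 4.09 between the deficiencies, and GLN1-2 is at 0.11, -1.42 and 1.53.

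Compared directly, the N-deficient roots held more transcript than the P-deficient roots for 4 of the 6 genes, NADH-GOGAT2, GLN1-2, GLN1-1 and Fd-GOGAT. The background was 3.78% of 32806 genes past the threshold with 1.39% higher and 2.40% lower in N-deficient roots. The control libraries enter this comparison through the scale shared by the 9 libraries and through the estimate of the spread. NADH-GOGAT2 differed most, at 102.2 ± 28.4 against 5.36 ± 2.70 normalised reads (SD, n = 3). Its log2 fold change was 4.09 ± 0.37, 17.1-fold (adjusted p = 0.000151, limma with Benjamini-Hochberg correction), rank 67 of 32806 by size. It was past the threshold under all 13 alternatives, with adjusted p at most 0.00184.

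GLN1-2 was at 19250.8 ± 2557.3 normalised reads in N-deficient roots and 7268.8 ± 3268.5 in P-deficient roots, with no overlap. The log2 fold change was 1.53 ± 0.33 (adjusted p = 0.0308, limma with Benjamini-Hochberg correction), and 1.06 without P-deficient library 3 (limma adjusted p = 0.00424). The call was lost in a fit of the 6 deficient libraries alone (adjusted p = 0.0791) and without N-deficient library 1 (0.109), 2 (0.0534) or 3 (0.124). GLN1-1 had a log2 fold change of 1.29 ± 0.23 (adjusted p = 0.0139, limma with Benjamini-Hochberg correction), lost in the 6-library fit (0.055) and without N-deficient library 3 (0.0592). Without P-deficient library 3 it was 0.99 (limma adjusted p = 0.00352). For Fd-GOGAT it was 0.87 ± 0.19 (adjusted p = 0.0366, limma with Benjamini-Hochberg correction), lost in the 6-library fit (0.0911) and without N-deficient library 1 (0.116), 2 (0.0672) or 3 (0.137). Without P-deficient library 3 it was 0.61 (limma adjusted p = 0.00998). The libraries of the groups did not overlap for any of these genes. This adds no separate support, since the genes passed the test on the same libraries. The share of all genes without overlap was not counted.

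GS2 and GLN1-3 did not pass between the deficiencies. For GS2 the libraries did not overlap, and the log2 difference was 0.41 ± 0.11 (adjusted p = 0.0796, limma with Benjamini-Hochberg correction), with an adjusted p of 0.0179 by DESeq2. For GLN1-3 it was 0.15 ± 0.28 (adjusted p = 0.841, limma with Benjamini-Hochberg correction), and -0.02 without N-deficient library 3.

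The levels can be ranked against each other once divided by gene length. In control roots the order, in normalised reads per kilobase (mean ± SD, n = 3), was GLN1-2 at 12293.4 ± 1410.3, GLN1-1 at 5914.5 ± 188.7, GS2 at 1054.6 ± 129.2, Fd-GOGAT at 689.5 ± 43.9, GLN1-3 at 23.5 ± 6.44 and NADH-GOGAT2 at 11.3 ± 1.04. The ranges of GLN1-2 and GLN1-1 did not overlap, nor did those of GS2 and Fd-GOGAT. In N-deficient roots GLN1-1 led with 17894.0 ± 1755.8 and GLN1-2 followed with 13294.8 ± 1766.1. GS2 at 1211.6 ± 49.5 overlapped Fd-GOGAT at 1133.2 ± 67.4, and GLN1-3 at 46.6 ± 12.7 overlapped NADH-GOGAT2 at 45.3 ± 12.6. Within each N-deficient library GS2 was above Fd-GOGAT, at 1258.0 against 1147.1, 1159.5 against 1060.0 and 1217.2 against 1192.6. The order of GLN1-3 and NADH-GOGAT2 differed between libraries. In P-deficient roots GLN1-1 at 7616.7 ± 2543.3 again stood above GLN1-2 at 5019.9 ± 2257.3. Their ranges overlapped, from 4793.1 to 9727.8 and from 2416.8 to 6436.9. Within each P-deficient library GLN1-1 was the higher, at 9727.8 against 6205.8, 8329.0 against 6436.9 and 4793.1 against 2416.8. GS2 in P-deficient roots was at 916.4 ± 70.4, Fd-GOGAT at 638.4 ± 182.7, GLN1-3 at 41.1 ± 7.42 and NADH-GOGAT2 at 2.38 ± 1.20.

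GLN1-1 took a larger share of the cytosolic synthetase transcripts in every library of either deficiency than in any control library, while their sum was above control in N-deficient libraries and below it in P-deficient ones. GLN1-1 gave 32.8%, 35.5% and 29.4% of the cytosolic synthetase reads per kilobase in the control libraries. It gave 53.2%, 63.1% and 55.6% under nitrogen deficiency and 60.9%, 56.3% and 66% under phosphorus deficiency. The means were 32.6% ± 3.04, 57.3% ± 5.18 and 61.1% ± 4.88 (SD, n = 3). Either deficiency was above control in every library, by 24.7 and 28.5 percentage points (exact permutation test, two-sided, p = 0.1 for each, the smallest that 3 against 3 libraries allow). The deficiencies differed by -3.77 points (exact permutation test, two-sided, p = 0.4). A share within a library does not depend on how libraries are scaled, and without P-deficient library 3 the second difference was 26 points. The control libraries are common to both differences.

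Summed over the 3 cytosolic genes, reads per kilobase were 17764.1, 17274.4 and 19655.9 in the control libraries and 30003.6, 30733.5 and 32968.8 under nitrogen deficiency. The P-deficient libraries held 15974.0, 14800.1 and 7258.8, all below the controls. The log2 ratio of group means was 0.78 under nitrogen deficiency. Under phosphorus deficiency it was -0.52, and -0.25 without P-deficient library 3. The sum was added after the values were seen and carries no test.

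**Figure D3:**
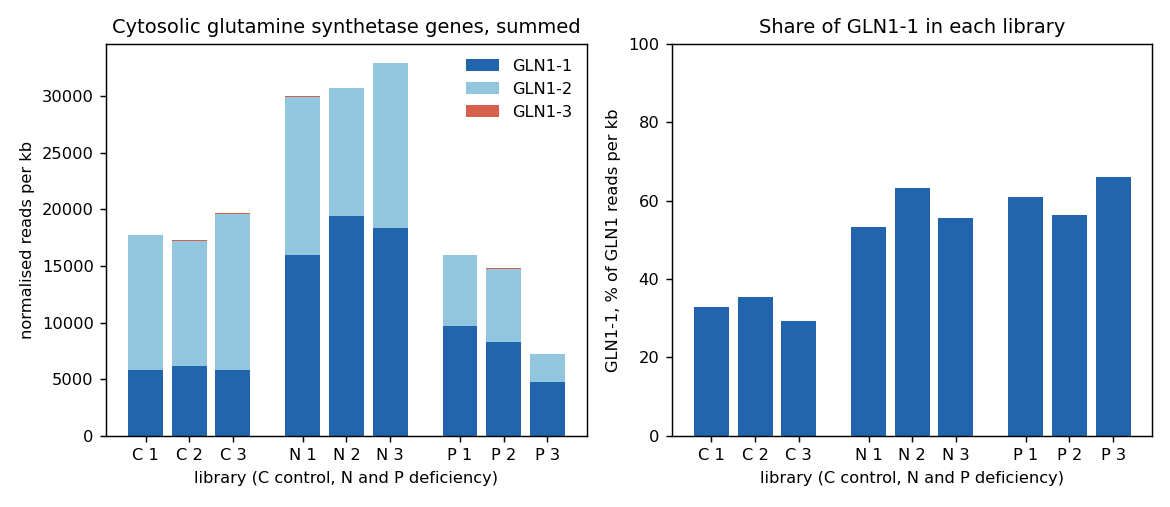
Left, normalised reads per kilobase of the cytosolic synthetase genes stacked in each library (C control, N and P deficiency). Right, the share of GLN1-1 in percent of that sum, between 29.4% and 35.5% in the control libraries and between 53.2% and 66% in the deficient ones. GLN1-3 is barely visible in the stack.

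Plastid GS2 took 5.46% ± 0.28 of all glutamine synthetase reads per kilobase in control roots, 3.74% ± 0.25 under nitrogen deficiency and 7.35% ± 2.59 under phosphorus deficiency (SD, n = 3). The difference from control was -1.72 percentage points under nitrogen deficiency (exact permutation test, two-sided, p = 0.1, the smallest possible) and 1.89 points under phosphorus deficiency (p = 0.2, exact permutation test). P-deficient library 3 held 10.3%, against 5.62% and 6.11% in the others of its group, and without it the difference from control was 0.408 points. Between the deficiencies the difference was -3.61 points (exact permutation test, two-sided, p = 0.1), and -2.12 points without that library. NADH-GOGAT2 was a small part of the 2 glutamate synthase genes, at 1.61% ± 0.10 in control roots, 3.83% ± 0.96 under nitrogen deficiency and 0.43% ± 0.32 under phosphorus deficiency. The groups did not overlap (exact permutation test, two-sided, p = 0.1 for each pair). Fd-GOGAT made up the rest in every library. NADH-GOGAT1 (Os01g0681900) was absent from the genes the authors listed. These are therefore shares among the genes at hand and not of all glutamate synthase transcripts in the roots.

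Genes upstream and beside the cycle were described from lists of pathway genes, given by locus or taken by domain. Their counts are to be read against the shares called over all genes, which under nitrogen deficiency were 6.90% higher and 5.94% lower, under phosphorus deficiency 3.58% higher and 2.70% lower, and between the deficiencies 1.39% higher and 2.40% lower in N-deficient roots. Ammonium transporters of the AMT1 group, which carry ammonium into root cells, were higher in N-deficient than in P-deficient roots for 3 of 3 genes, with a median log2 fold change of 1.71 against -0.00 over all genes tested. Os04g0509600, known as AMT1-1, was at 710.6 ± 216.0 normalised reads in control roots and 1530.9 ± 146.7 under nitrogen deficiency (log2 fold change 1.15 ± 0.19, adjusted p = 0.00577, limma with Benjamini-Hochberg correction). Os02g0620500 was at 5.29 ± 2.96 in control roots and 85.7 ± 42.2 under nitrogen deficiency (adjusted p = 0.00231, limma with Benjamini-Hochberg correction). It had 0 reads in all 3 P-deficient libraries, which allows up to 3 reads in each. Os02g0620600 fell from 170.1 ± 64.9 to 59.4 ± 12.5 under phosphorus deficiency (log2 fold change -1.45 ± 0.30, adjusted p = 0.035, limma with Benjamini-Hochberg correction). Os02g0620500 was, like NADH-GOGAT2, called higher under nitrogen deficiency and lower under phosphorus deficiency (adjusted p = 0.0398 by limma for the latter). Between the deficiencies, the call of Os02g0620600 was lost without any single N-deficient library or P-deficient library 1 or 3, with adjusted p from 0.0502 to 0.116.

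Nitrate reductase makes nitrite from nitrate. Of 5 nitrate and nitrite reductase genes, 2 fell and 0 rose in either deficiency, with medians of -0.98 and -1.5 on the log2 scale (over all genes, 5.94% and 2.70% lower). The nitrate reductase gene Os02g0770800 fell by 1.72 ± 0.31 under nitrogen deficiency (adjusted p = 0.008, limma with Benjamini-Hochberg correction) and by 1.55 ± 0.31 under phosphorus deficiency (adjusted p = 0.0282). For the nitrate reductase gene Os08g0468100 the decreases were 0.98 ± 0.25 (log2, adjusted p = 0.0372, limma with Benjamini-Hochberg correction) and 1.5 ± 0.25 (adjusted p = 0.0161), the first lost without control library 2 (0.056) or any single N-deficient library (0.0646, 0.109 and 0.114). The P-deficiency calls of both reductases and of Os02g0620500 and Os02g0620600 were lost without P-deficient library 1 or 2, with limma adjusted p from 0.0593 to 0.117. Those of Os02g0620500 and Os02g0620600 were also lost without control library 1 (0.145 and 0.129) or 3 (0.116 and 0.0906), that of Os02g0770800 without control library 1 (0.0832), and that of Os02g0620500 without P-deficient library 3 (0.0512) and with edgeR (0.0899).

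Asparagine synthetase and glutamate dehydrogenase share substrates with the cycle, the former using glutamine and the latter releasing or binding ammonium. Of 6 such genes, 1 rose and 2 fell under nitrogen deficiency and 0 passed under phosphorus deficiency, with medians of -0.36 and -0.28 (over all genes, 12.8% and 6.28% called). Under phosphorus deficiency 1 was at an unadjusted limma p under 0.05, and 1 passed with DESeq2. The asparagine synthetase gene Os06g0265000 held 731.6 ± 117.9 normalised reads in control and 1605.2 ± 38.8 in N-deficient roots (log2 fold change 1.15 ± 0.13, adjusted p = 0.000908, limma with Benjamini-Hochberg correction). Its paralog Os03g0291500 went from 10563.4 ± 539.8 to 4856.3 ± 1222.2 (log2 fold change -1.15 ± 0.17, adjusted p = 0.00338, limma with Benjamini-Hochberg correction). The glutamate dehydrogenase gene Os04g0543900 fell by 0.81 ± 0.12 (log2, adjusted p = 0.00283, limma with Benjamini-Hochberg correction).

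**Figure D4:**
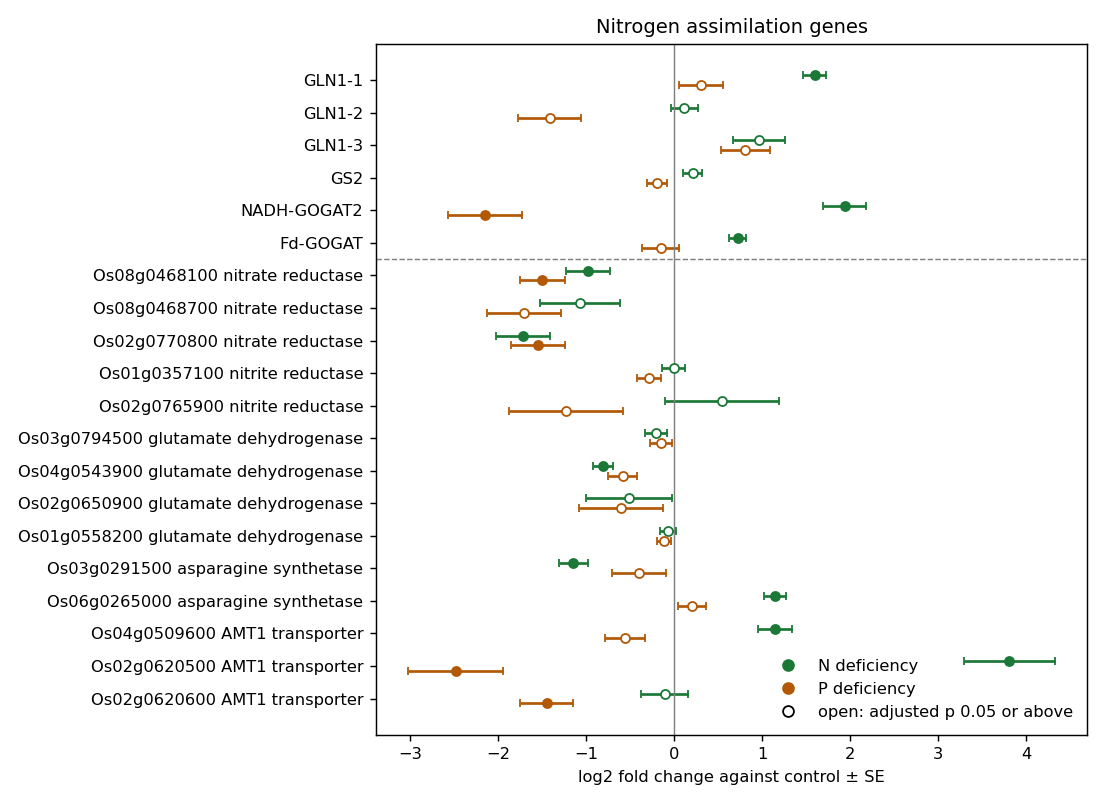
Log2 fold changes against control (x axis, ± SE) under nitrogen deficiency (green) and phosphorus deficiency (orange) for the 6 genes above the dashed line and for nitrate and nitrite reductase, glutamate dehydrogenase, asparagine synthetase and AMT1 genes below it, with open points where the limma adjusted p is 0.05 or above. NADH-GOGAT2 and Os02g0620500 are filled on both sides of 0, and the fitted value of Os02g0620500 under phosphorus deficiency depends on the added 1 because all P-deficient libraries are at 0.

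Other lists cover suppliers of the carbon skeleton and of electrons. Of 16 genes with a citrate synthase, aconitase or isocitrate/isopropylmalate dehydrogenase domain, 1 rose under nitrogen deficiency and 0 passed under phosphorus deficiency, with medians of -0.03 and -0.05. The list was taken by domain and is wider than the enzymes on the way to 2-oxoglutarate. It takes in, for example, a model that also carries a CoA-ligase domain. The single higher gene is near the background of 6.90%. For phosphorus deficiency the count was also 0 at an unadjusted limma p under 0.05 and 0 with DESeq2. The single call, Os04g0508200 at 0.39 ± 0.10 (log2, adjusted p = 0.0406, limma with Benjamini-Hochberg correction), was lost without control library 1 or 2 or any single N-deficient library, with adjusted p from 0.0513 to 0.143. Of 12 tested genes with a 2Fe-2S iron-sulfur domain, 1 rose and 4 fell under nitrogen deficiency (median -0.48), where 6.90% of all genes were higher and 5.94% lower. The electron donors of Fd-GOGAT carry this domain, but the list also holds other enzymes. The gene that rose also carries aldehyde oxidase and xanthine dehydrogenase domains, so it is not a ferredoxin. Os08g0104600 was the member that fell most, from 917.2 ± 459.6 to 214.7 ± 56.6 normalised reads (log2 fold change -1.998 ± 0.333, adjusted p = 0.00573, limma with Benjamini-Hochberg correction). The 5 calls became 1 without N-deficient library 1 or 3, 2 without library 2, 3 without control library 2 or 3, and 8 with DESeq2.

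Phosphoenolpyruvate carboxylase refills the citric acid cycle with carbon. Of its 8 genes, 0 passed under nitrogen deficiency by limma, 2 were at an unadjusted p under 0.05 and 1 passed by DESeq2, with 2 of 7 tested higher under phosphorus deficiency, where 3.58% of all genes were higher. Of these Os09g0315700 had a log2 fold change of 1.26 ± 0.25 (adjusted p = 0.0296, limma with Benjamini-Hochberg correction), and both calls were lost when any single control library or P-deficient library 1 or 2 was left out, with adjusted p from 0.0583 to 0.134. Glycine cleavage releases the photorespiratory ammonium that GS2 recaptures in leaves, and serine hydroxymethyltransferase acts beside it. In the list of both, 5 of 12 genes rose, 1 fell and 6 did not pass under nitrogen deficiency (median 0.22), where 6.90% of all genes were higher and 5.94% lower. The genes that rose include serine hydroxymethyltransferase genes, whose enzyme does not itself release ammonium. The glycine cleavage H-protein gene Os10g0516100 was the one that fell, with 65.2 ± 20.1 normalised reads in control and 21.7 ± 7.22 in N-deficient roots (log2 fold change -1.55 ± 0.33, adjusted p = 0.0177, limma with Benjamini-Hochberg correction), a call lost without N-deficient library 3 (0.0583) or control library 2 (0.08). A P-protein locus that the authors list under an identifier of their own was at 3725.7 ± 657.0 normalised reads in control and 8053.3 ± 1064.6 in N-deficient roots (log2 fold change 1.12 ± 0.16, adjusted p = 0.00261, limma with Benjamini-Hochberg correction).

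Glutamine amidotransferases are enzymes that spend glutamine, and the list holds the asparagine synthetases again. Of 23 tested under nitrogen deficiency 4 rose and 4 fell (median 0.10), and of 24 under phosphorus deficiency 1 fell (median -0.03), against 12.8% and 6.28% of all genes called. The count under phosphorus deficiency is near that background. The 8 calls became 5 without control library 2. The P-II gene, whose product senses carbon and nitrogen status in plastids, did not pass in any comparison (log2 fold changes -0.05 and 0.08 against control). Neither did Os10g0456500, which joins a glutamine synthetase catalytic domain to an amidohydrolase domain and was at 36.1 ± 2.30, 37.9 ± 2.87 and 41.5 ± 13.4 normalised reads in control, N-deficient and P-deficient roots.

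Across the 9 libraries the 6 genes did not vary as one unit. As a description over libraries that share 3 group differences and P-deficient library 3, Pearson's r of log2 levels was 0.911 between GLN1-1 and Fd-GOGAT, 0.875 between GS2 and Fd-GOGAT, 0.844 between GLN1-2 and GS2, and -0.354 between GLN1-2 and GLN1-3. Among 16832 annotated genes with a mean of at least 10 normalised reads, the gene most like GLN1-1 was Os04g0680400, with an amidohydrolase domain (r = 0.985 over 9 libraries, lowest 0.981 with 1 library left out). It was at 467.4, 3876.8 and 907.3 normalised reads on average in control, N-deficient and P-deficient roots. Os03g0804300, with a DHHC palmitoyltransferase domain, followed (r = 0.98), at 969.0, 1137.4 and 970.0 in the same order. Its change was much smaller than that of GLN1-1, since r does not depend on the size of a change. For GLN1-2 the most alike were Os04g0492500, with an RWD domain (r = 0.984), and the receptor-kinase type gene Os01g0810800 (r = 0.98), falling to 0.947 and 0.931 with 1 library left out.

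For NADH-GOGAT2 the most alike was the peroxidase gene Os11g0112200 (r = 0.984), at 56.92, 152.8 and 17.98 normalised reads in control, N-deficient and P-deficient roots, followed by the diacylglycerol kinase gene Os03g0425300 (r = 0.969), at 73.21, 402.5 and 31.83. For Fd-GOGAT they were Os04g0597800 of the POT transporter family (r = 0.978), at 302.8, 510.8 and 264.5, and Os10g0352000 with a domain of unknown function (r = 0.976). GS2 was most like the RING finger gene Os03g0149800 (r = 0.974) and the glycosyl hydrolase gene Os05g0443400 (r = 0.971). GLN1-3 was most like Os08g0129900 with a Snapin domain (r = 0.989), at 122.5, 163.1 and 156.6, and the kinase gene Os04g0548400 (r = 0.976), at 124.7, 170.8 and 153.1. All are the highest of many candidates and carry no test.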

How the data were processed

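Root RNA of 9 rice libraries (3 control, 3 N-deficient, 3 P-deficient) was sequenced and, per the submitters' processing notes, aligned with HISAT2 2.0.5. The genome build named there is a human one, and the counter, annotation, strand setting and size factor method were not given in the sources used here. The authors deposited 1 table per deficiency, with signal values per library (reads divided by a size factor), group means, log2 fold changes, p-values and gene lengths, per the file headers. The tables list 35128 and 35059 genes with at least 2 reads over 6 libraries and share the same control libraries.

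Whole reads were recovered from the deposited signal (100.0% of values within 0.001 of a whole number in all 12 library columns), and the control reads were identical in both tables. The main test was limma 3.58.1 under R 4.3.3, with the prior variance trended on intensity, on log2(value + 1), over genes with a mean of at least 1 in 1 group, with Benjamini-Hochberg adjustment over all genes tested and a threshold of 0.05. Each deficiency was tested against control in its own table. The deficiencies were compared on the recovered reads of all 9 libraries, put on one scale with median-of-ratios size factors. With 3 libraries a group, an exact permutation p cannot go below 0.1. Scripts were tested on simulated data. Alternatives were edgeR 4.0.16 and DESeq2 1.42.0 on the recovered reads, a pseudocount of 0.1, no filter, a replicate block, 1 fit over 9 libraries, and leaving out each library. Genes named are the 6 members, the 2 annotated genes most correlated with each, and up to 3 genes per pathway list by size among those past the threshold. List genes given by locus were kept where the deposited domain matched the enzyme, and the other lists were taken by domain alone. RefSeq (assembly ASM3414082v1) supplied names. The members and lists were chosen with earlier results of these data known. Sequences are not shown, since no sequence file was used here. Limma p-values set each group difference against the spread between these libraries, estimated with help from all genes tested. Precision is limited by the 2 to 8 reads of NADH-GOGAT2 in the P-deficient libraries.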

Additional observations from a re-analysis of the deposited data

Results flagged for a closer look

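NADH-GOGAT2 responded in opposite directions in the deficiencies, and the difference between the responses was tested. It rose by 1.94 on the log2 scale under nitrogen deficiency and fell by 2.15 under phosphorus deficiency. The fall was past the threshold under 8 of 13 alternatives and was lost without any single control library (limma adjusted p from 0.0943 to 0.103). The direct comparison of N-deficient with P-deficient roots gave 4.09 ± 0.37 (log2, SE, n = 3 per group, adjusted p = 0.000151, limma with Benjamini-Hochberg correction). The gene was flagged by this same difference, which does not by itself show opposite directions against control. The values of NADH-GOGAT2 rest on 2 to 8 reads in each P-deficient library and on 81 to 145 reads in each N-deficient library.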

How the results depend on the processing

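Over the 18 results of the 6 genes (6 genes in 3 comparisons) and 234 alternatives, 210 kept the direction and the side of the threshold, 15 lost the call, 7 gained one and 2 changed sign. The 2 were Fd-GOGAT under phosphorus deficiency without P-deficient library 3 (0.107, with -0.298 without library 2 at the other end) and GLN1-3 between the deficiencies without N-deficient library 3 (-0.021, with 0.382 without library 1 at the other end), neither of them past the threshold in any form. Of the 6 genes, the 3 called under nitrogen deficiency stayed called under all 13 alternatives, and GLN1-3 was called too under DESeq2 and without N-deficient library 1. Under phosphorus deficiency 1 was called, against 2 with DESeq2, 2 with 1 fit over 9 libraries and 0 to 3 when single libraries were left out. Between the deficiencies 4 were called, against 1 in a fit of the 6 deficient libraries only, which leaves fewer libraries to estimate the spread, and 1 to 4 when single libraries were left out. Over all genes, the 4194 called under nitrogen deficiency were 2622 to 3710 with single libraries left out. The 2047 under phosphorus deficiency were 3256 with DESeq2 and 696 to 3384 with single libraries left out, the last without P-deficient library 3. The 1241 between the deficiencies were 2278 with DESeq2 and 689 to 1577 with single libraries left out. The cause of these shifts was not tested. Shares without division by gene length were -2.47 percentage points for GS2 under nitrogen deficiency, and for NADH-GOGAT2 0.96 (nitrogen deficiency), -0.499 (phosphorus deficiency) and 1.46 (between the deficiencies), which follows from the unequal gene lengths.

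Replicate numbers were not taken to pair the libraries, because not every equal-numbered pair correlated above 0.1 in its deviations from the group means. The correlations were -0.101 to 0.036 for number 1, 0.218 to 0.351 for number 2 and 0.195 to 0.368 for number 3. Unequal-numbered pairs ran from -0.393 to 0.243, and those between numbers 2 and 3 were all negative, from -0.393 to -0.178. Whether numbers 2 and 3 mark something shared between groups was not tested. With the replicate number as a block, 3, 1 and 4 of the 6 genes were called, and 4661, 2106 and 1522 genes overall. The block took the P-deficiency calls of the AMT1 genes Os02g0620500 (0.0641) and Os02g0620600 (0.0675) and of the phosphoenolpyruvate carboxylase genes Os09g0315700 (0.0586) and Os02g0244700 (0.0517) above an adjusted p of 0.05 by limma. Depth limits NADH-GOGAT2 in P-deficient roots and GLN1-3 in all groups.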

Other observations

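The gene next to NADH-GOGAT2 on the same strand, Os05g0555700, 1643 bases beyond its end and with no domain listed, was at 727.7 ± 65.3 normalised reads in control roots, 1743.1 ± 169.8 under nitrogen deficiency and 1102.0 ± 130.7 under phosphorus deficiency (SD, n = 3). It rose in both deficiencies, by 1.26 and 0.60 on the log2 scale (adjusted p = 0.000354 and 0.0322, limma with Benjamini-Hochberg correction), whereas NADH-GOGAT2 fell under phosphorus deficiency. On the other side and the same strand, 868 bases before NADH-GOGAT2, the locus EPlOSAG00000023394 was at 1.68 ± 0.70, 9.52 ± 2.73 and 0.0 normalised reads in the same order. Its log2 fold changes were 1.99 under nitrogen deficiency, -1.37 under phosphorus deficiency and 3.36 between the deficiencies (adjusted p = 0.0179, 0.145 and 0.00118, limma with Benjamini-Hochberg correction). Whether this low-level locus belongs to the NADH-GOGAT2 gene was not tested. Os01g0682001, whose only listed domain is the class-II glutamine amidotransferase domain that Fd-GOGAT also carries, was at 2883.0 ± 767.0, 3423.5 ± 591.4 and 1948.2 ± 388.3, and did not pass in any comparison (adjusted p = 0.451, 0.187 and 0.066, limma with Benjamini-Hochberg correction). Its identifier is close in number to that of NADH-GOGAT1 (Os01g0681900), and whether it belongs to that gene was not tested. These loci were chosen after their values were seen.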
